A study of Mus musculus with 2 samples.

Results

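The 9 genes described here, Shh, Ptch1, Smo, Gli1, Gli2, Gli3, Hhip, Boc and Gas1, make up the core of the Hedgehog pathway. They were found by symbol among the 32285 genes of the count tables, each on 1 row, and their transcripts were followed across the nuclei types of the developing mouse kidney. Nuclei of whole kidneys were sequenced in 1 library at embryonic day E18.5 and 1 library at postnatal day P3, each pooled from several males and females. The E18.5 kidneys carried floxed alleles, Mycf/f;Mycnf/f, with no Cre, on a mixed background, and the P3 kidneys are given as wild type, C57BL/6J, although the methods of the study name a mixed background at both ages. Cre-free floxed alleles leave the genes intact by design, but age, genotype, background, library and the release of the counting software changed together and cannot be told apart. With 1 library per age, no test between ages or types was possible. Values are unique molecular identifiers (UMIs) summed over the nuclei of a type and scaled to the type's total as CPM (counts-per-million), and the ranges in parentheses are exact 95% intervals that cover counting error only.

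Hedgehog ligands are secreted proteins that bind Ptch1 on receiving cells. Unbound Ptch1 holds the membrane protein Smo inactive. Ligand binding releases Smo, which acts through the primary cilium on the transcription factors Gli2, chiefly an activator, and Gli3, chiefly a repressor. Ptch1, Gli1 and Hhip are themselves induced by the signal in many tissues, Hhip binds ligand and dampens the response, and Boc and Gas1 are co-receptors that help ligand engage Ptch1. In the embryonic kidney and ureter, Shh is known as a product of the medullary collecting ducts and ureteric epithelium that acts on the surrounding mesenchyme.

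After quality limits, 21270 nuclei with a median of 3132 UMIs remained at E18.5 and 11765 nuclei with a median of 4534 UMIs at P3, and 69 barcodes occurred in both libraries. Nuclei were clustered without the Hedgehog genes, and clusters were named from markers outside the 9 genes. The 5174 interstitial nuclei at E18.5 and 3169 at P3 formed the largest named type, with 7 of 9 interstitial markers raised at least 2-fold at E18.5 and 8 of 9 at P3. Nephron progenitor nuclei raised 4 of 7 markers at E18.5 and 3 of 7 at P3, where 3 is the fewest that allow a name. The ureteric lineage, meaning ureteric tip, collecting duct and urothelium, held 1223 and 605 nuclei. Unnamed clusters held 45.6% of nuclei at E18.5 and 31.2% at P3. Called doublets were 16.4% and 16.8% of nuclei, but 5.16% and 4.89% of interstitial nuclei.

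In the GENCODE M21 annotation of mm10, Shh lies at chr5:28456815-28467256 on the minus strand. Ptch1 lies at chr13:63508328-63573598 and Hhip at chr8:79965851-80058006, both on the minus strand. Gli1 at chr10:127329882-127341974 and Gli2 at chr1:118834132-119053619 are on the minus strand too, while Gli3 at chr13:15463235-15730026 and Smo at chr6:29735503-29761365 are on the plus strand. Boc lies at chr16:44485049-44558897 and Gas1 at chr13:60174405-60177365, both on the minus strand. The 9 genes differ widely in length, from 2961 bases for Gas1, which has a single exon, to 266792 bases for Gli3. Nuclear RNA is rich in introns, so levels were compared between types and not between genes.

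Promoter sequences of 6 of the 9 genes, Ptch1, Smo, Gli2, Gli3, Hhip and Gas1, were found in RefSeq tables of GRCm38, the assembly that mm10 names. The 250 bases upstream of the start of Ptch1 and Hhip are shown because both genes were higher in interstitial nuclei and interstitial nuclei with Ptch1 held Hhip more often than those without it. CG dinucleotides are in capitals, and both sequences run 5′ to 3′ on the minus strand, at chr13:63565736-63565985 for Ptch1 and chr8:80058009-80058258 for Hhip. The Ptch1 window lies within introns of longer annotated transcripts of the gene, and the Hhip window lies outside the annotated gene.
Ptch1: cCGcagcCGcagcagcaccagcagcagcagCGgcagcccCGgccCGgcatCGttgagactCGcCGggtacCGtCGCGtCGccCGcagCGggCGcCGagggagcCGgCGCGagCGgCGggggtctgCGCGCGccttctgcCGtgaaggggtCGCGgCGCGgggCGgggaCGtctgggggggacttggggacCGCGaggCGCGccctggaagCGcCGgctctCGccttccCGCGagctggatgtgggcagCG
Hhip: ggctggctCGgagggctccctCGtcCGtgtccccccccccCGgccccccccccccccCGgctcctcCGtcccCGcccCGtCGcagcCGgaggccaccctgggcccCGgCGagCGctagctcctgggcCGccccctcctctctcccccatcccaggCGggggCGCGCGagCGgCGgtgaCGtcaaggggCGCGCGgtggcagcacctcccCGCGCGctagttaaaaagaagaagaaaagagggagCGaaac
The Ptch1 window held 41 CG dinucleotides and the Hhip window 28, against a median of 6 over 32851 promoters, and 1.09% and 7.61% of promoters held at least as many as Ptch1 and Hhip. The Gli-binding motif GACCACCCA, searched on both strands over 300 bases that include the start, was present in 0 of the 6 promoters and in 0.253% of all promoters, so these letters are not in these windows.

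Shh was a rare transcript, with 107 UMIs at E18.5 and 89 at P3. Of these, 22 and 34 lay in the ureteric lineage, and the rest in other named types and in unnamed nuclei. Among named types, its level was highest in the collecting duct and urothelium. In the collecting duct at E18.5, 15 UMIs were counted, a level of 8.76 CPM (4.90 to 14.4), and urothelium with 3 UMIs stood at 9.40 CPM (1.94 to 27.5). The ureteric tip, the branching end of the same epithelium, held 4 UMIs at 1.86 CPM (0.506 to 4.75). Collecting duct and urothelium together were 4.77 times the tip (1.57 to 19.4) and 7.62 times all nuclei outside the lineage (4.31 to 12.8). At P3 the same 3 types kept this order. Urothelium had 19 UMIs in 8 of 71 nuclei, 29.0 CPM (17.5 to 45.3), the collecting duct 12 UMIs, 8.06 CPM (4.17 to 14.1), and the tip 3 UMIs, 2.01 CPM (0.414 to 5.86). Of the 19 urothelial UMIs, 7 came from 1 nucleus, so its interval rests on few nuclei, while no P3 collecting duct nucleus held more than 1. Urothelium exceeded the collecting duct 3.60-fold at P3 (1.66 to 8.14), whereas at E18.5 their ratio of 1.07 was undetermined (0.199 to 3.80). Interstitial nuclei held 18 and 13 UMIs, or 1.08 and 0.866 CPM, and leukocytes held none. At their depth a floor of 3 UMIs equals 8.01 CPM at E18.5 and 5.34 CPM at P3.

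**Figure D1:**
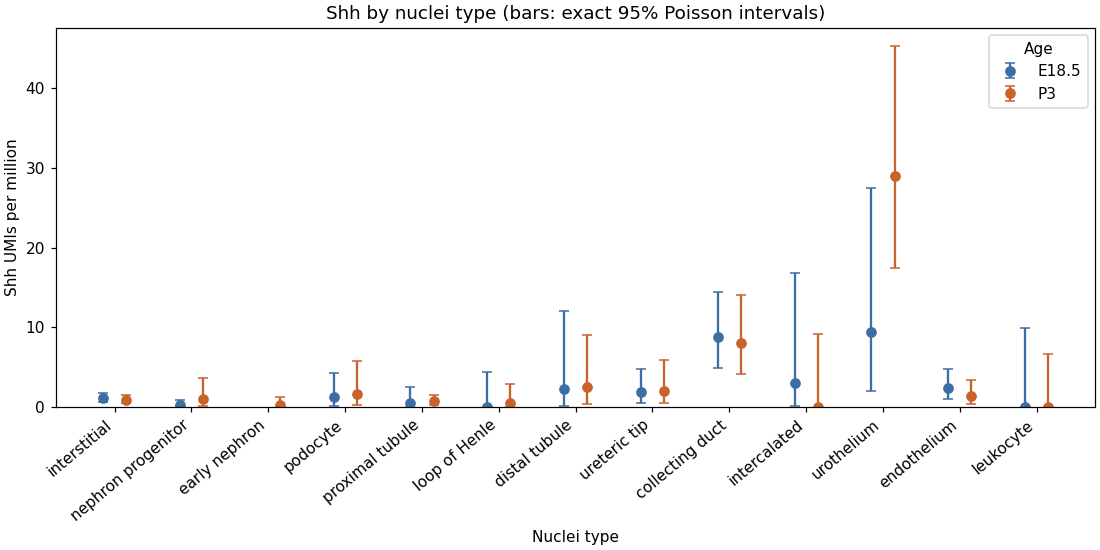
Shh level in CPM (vertical axis) by nuclei type (horizontal axis) at E18.5 (blue) and P3 (orange), with exact 95% Poisson intervals as bars. Collecting duct and urothelium stand highest at both ages, and the P3 urothelium, at 29.0, lies above the P3 collecting duct, at 8.06.

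The ureteric lineage was also clustered on its own. At E18.5 the tip name then covered 232 nuclei, against 637 in the ureteric tip type above. A cluster of 302 nuclei led by Abca13 and Slc12a3 raised 2 of 7 distal tubule markers and was left unnamed. Comparisons with the tip type, above and below, may therefore rest partly on other nuclei. At E18.5, 12 of 22 Shh UMIs fell in the collecting duct cluster at 7.70 CPM (3.98 to 13.4). A cluster led by Gsdmc3, Ptprr and Slc14a2, a urea transporter of the inner medulla, stood at 9.34 CPM (1.92 to 27.3) on 3 UMIs. A urothelial cluster led by Trp63, a basal-cell transcription factor, held 3 UMIs at 19.9 CPM (4.10 to 58.1), and a cluster led by the uroplakins Upk1b and Upk1a, the plaque proteins of the surface, held none, which allows up to 18.1 CPM. At P3 a cluster of 44 nuclei with Trp63 among its leading genes held 7 UMIs in 5 nuclei at 30.6 CPM (12.3 to 63.1), and it was left unnamed because it raised only 2 of 9 urothelial markers. The P3 cluster led by Upk1b, of 25 nuclei, held 12 UMIs at 30.9 CPM (15.98 to 54.0), all of them in 3 nuclei. Of the P3 collecting duct clusters, the Slc14a2 cluster stood at 11.6 CPM (4.66 to 23.9) and the Rhcg cluster at 3.11 CPM (0.0788 to 17.3) on 1 UMI, intervals that overlap. A further P3 cluster of 110 nuclei, led by Chst8, raised 4 of 7 distal tubule markers and was left unnamed. It shared the leading genes Chst8, Thsd7b and Sh3rf3 with a whole-library cluster of 105 nuclei named collecting duct on 5 of 8 markers. The P3 collecting duct values above may therefore rest partly on distal nuclei. Read per nucleus, Shh was detected in 11.3% of P3 urothelial nuclei (median 6261 UMIs) and in 0.455% of nephron progenitor nuclei (median 4136 UMIs), and in 2.82% (0.343 to 9.81) and 0.227% (0.00575 to 1.26) when each nucleus was thinned to 1000 UMIs, so the thinned intervals overlap. The P3 level in urothelium, 3.09 times that at E18.5 (0.909 to 16.3), was not separable from it at this depth.

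Ptch1, the receptor, was detected in all named types and was highest in the interstitium. At E18.5 it stood at 316 CPM (308 to 325) in interstitial nuclei, followed by nephron progenitors at 188 CPM (179 to 198) and the ureteric tip at 142 CPM (127 to 159). The tip, intercalated cells, collecting duct and podocytes, between 134 and 142 CPM, did not differ from one neighbour to the next beyond counting error. The lowest values were in proximal tubule at 72.2 CPM, leukocytes at 64.0 CPM and urothelium at 43.9 CPM. At P3 the interstitium again led with 240.4 CPM (232.6 to 248.4), ahead of nephron progenitors at 195.5 CPM, intercalated cells at 183 CPM and the tip at 166 CPM, and the lowest values were 44.5 CPM in leukocytes and 38.5 CPM in distal tubule. Interstitial nuclei exceeded all other nuclei 2.02-fold at E18.5 (1.95 to 2.09) and 2.12-fold at P3 (2.03 to 2.21). After thinning to 1000 UMIs, 24.5% of 5150 interstitial nuclei at E18.5 (23.3 to 25.7) and 18.7% of 3163 at P3 (17.3 to 20.1) held Ptch1, against 6.41% and 4.08% of leukocytes. The shares without thinning were 47.6% and 45.9% of interstitial nuclei, and 24 and 6 interstitial nuclei were too shallow to be thinned. Urothelium, whose Shh exceeded that of the collecting duct beyond counting error only at P3 and on few nuclei, had a low Ptch1 level. It stood at 0.327 times the collecting duct at E18.5 (0.176 to 0.559) and 0.602 times at P3 (0.405 to 0.875).

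**Figure D2:**
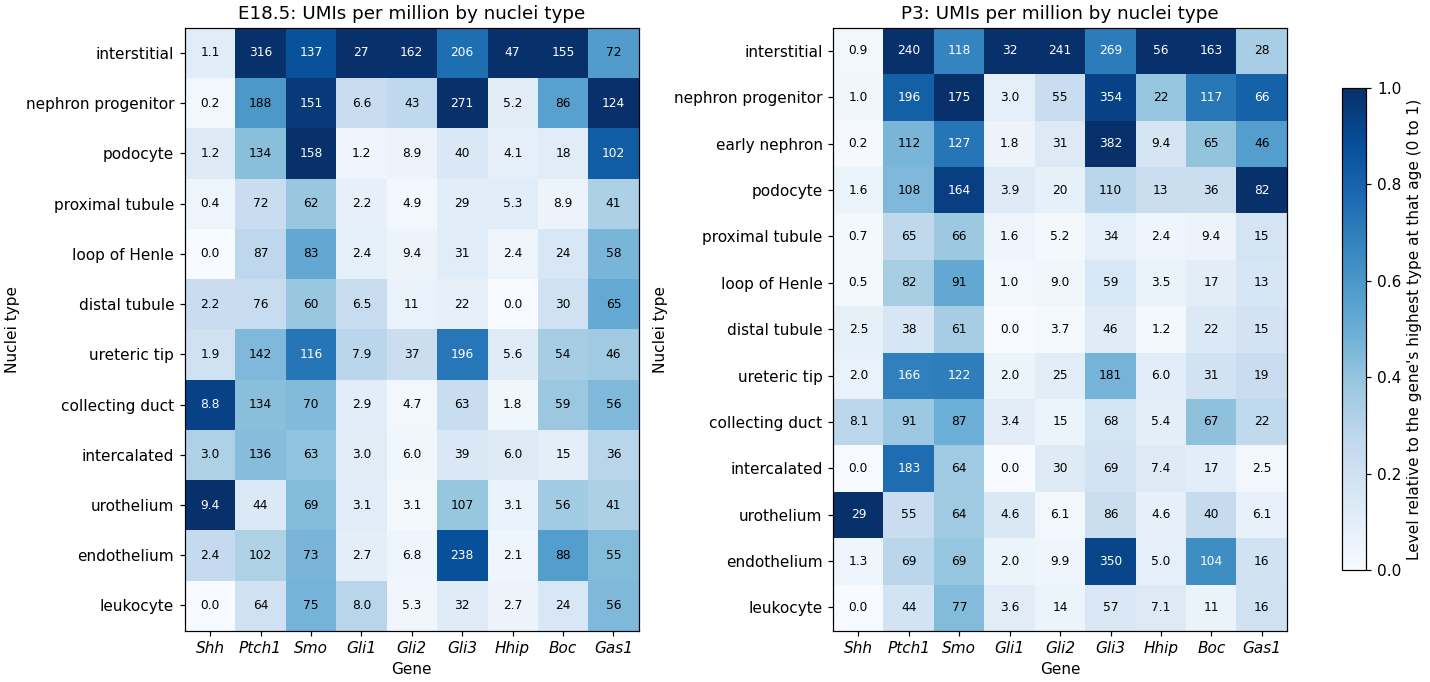
Levels of the 9 genes in CPM (numbers in cells) by nuclei type (rows) at E18.5 (left) and P3 (right), shaded relative to each gene's highest type at that age. Ptch1, Gli1, Gli2, Hhip and Boc are highest in the interstitial row at both ages, and Gas1 in nephron progenitors or podocytes. Shh is highest in urothelium, though above collecting duct beyond counting error only at P3, where the urothelial UMIs lie in few nuclei.

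Gli1, Hhip and Gli2 marked the interstitium more sharply. Gli1, a transcriptional output of the pathway, had 458 UMIs at 27.5 CPM (25.01 to 30.1) in interstitial nuclei at E18.5 and 486 UMIs at 32.4 CPM (29.6 to 35.4) at P3. No other named type exceeded 8.01 CPM at E18.5 or 4.58 CPM at P3, and both of those values came from 3 UMIs. The interstitium exceeded all other nuclei in Gli1 by 4.12-fold (3.60 to 4.73) and 5.71-fold (4.94 to 6.61). With unnamed clusters left out of the comparison, the Gli1 ratios were 5.87 and 16.1, those of Gli2 6.96 and 14.4, and those of Hhip 11.3 and 8.80. The unnamed nuclei carried Gli1 at 7.76 and 9.25 CPM, and called doublets were 30.9% and 43.6% of them. Without called doublets the P3 ratios were 11.5 for Gli1, 10.9 for Gli2 and 7.86 for Hhip. Hhip, the decoy receptor, stood at 46.5 CPM (43.3 to 49.9) and 56.2 CPM (52.4 to 60.1) in the interstitium, 4.89 times (4.39 to 5.46) and 4.57 times (4.13 to 5.07) all other nuclei. The next named type in Hhip was intercalated cells at 6.04 CPM at E18.5 and nephron progenitors at 22.3 CPM at P3. The P3 interstitium was 2.52 times these progenitors (1.87 to 3.48). Gli2 showed 162 CPM (156 to 169) and 241 CPM (233 to 249), 4.25 times (4.02 to 4.50) and 5.15 times (4.90 to 5.42) the rest, and among the other named types only nephron progenitors (43.3 and 55.0 CPM) exceeded 30 CPM at both ages, with ureteric tip above it at E18.5 (36.7 CPM, and 25.4 CPM at P3) and early nephron at P3 (31.0 CPM). Unnamed nuclei carried Gli2 at 46.4 and 76.3 CPM. Boc, a co-receptor, was 2.50 times (2.37 to 2.62) and 2.73 times (2.59 to 2.88) the rest, with 88.0 and 104 CPM in endothelium and 85.9 and 117 CPM in nephron progenitors.

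In all, 5 of the 9 genes, Ptch1, Gli1, Gli2, Hhip and Boc, were at least 2-fold higher in interstitial nuclei at both ages. Across all tested genes, 5.6% were higher by this rule at E18.5 and 7.7% at P3, and 13.3% and 18.8% were lower. Ptch1 at E18.5 stood near this limit, and its ratio was 1.85 when clusters named by a stromal zone list were not counted as interstitial. The median ratio was 2.02 over the 9 genes at E18.5 and 2.43 over the 8 tested at P3, where Shh had too few UMIs, against 0.926 and 0.880 over all genes tested. The 9 genes were chosen for their pathway and with results of these libraries known, so these counts describe them and test nothing.

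The remaining members followed other patterns. Gli3, the main repressor, was spread over nephron progenitors at 271 CPM (260 to 283), endothelium at 238 CPM (222 to 255), interstitium at 206 CPM (200 to 213) and ureteric tip at 196 CPM (178 to 216) at E18.5, and fell to between 21.6 and 39.7 CPM in podocytes, leukocytes and the mature tubule segments. At P3 early nephron, nephron progenitors and endothelium, at 382, 354 and 350.4 CPM, did not differ from neighbour to neighbour beyond counting error. Within the ureteric lineage, collecting duct and urothelium had 0.356 times the tip's Gli3 at E18.5 (0.292 to 0.432) and 0.404 times at P3 (0.330 to 0.494). Gli2 was lower there as well, at 0.121 times (0.0533 to 0.241) and 0.478 times (0.278 to 0.807). Smo, the signal transducer, varied least, from 60.5 CPM in distal tubule to 158 CPM in podocytes at E18.5 and from 60.8 to 175 CPM at P3. Gas1, a co-receptor, was highest in nephron progenitors at 124 CPM (116 to 132) and podocytes at 102 CPM (87.8 to 119) at E18.5, and in podocytes at 81.8 CPM (66.8 to 99.1) and nephron progenitors at 65.8 CPM (55.1 to 78.0) at P3. In interstitial nuclei Gas1 did not differ from the rest of the kidney beyond counting error, at 1.003 times (0.940 to 1.07) and 1.09 times (0.978 to 1.22).

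To follow the pathway through the stroma, interstitial nuclei were clustered again and clusters were named by lists for cortical, medullary and papillary stroma, smooth muscle and mural cells. These lists left 1969 of 5174 nuclei at E18.5 and 1324 of 3169 at P3 unnamed. At E18.5 Ptch1 was 278 CPM (263 to 294) in 1597 cortical nuclei, 593 CPM (562 to 625) in 796 medullary nuclei and 478 CPM (451 to 507) in 574 papillary nuclei. The medullary level was 2.13 times the cortical one (1.98 to 2.30). Mural and renin-lineage nuclei had only 85.2 CPM (64.2 to 111). At P3 the levels were medullary 304 CPM (287 to 322), papillary 264 CPM (231 to 301) and cortical 200.1 CPM (184.9 to 216.1). The medullary and papillary intervals overlap, and the medullary-to-cortical ratio was 1.52 (1.38 to 1.68). The papillary name at P3 covers a single cluster led by Ranbp3l of 122 nuclei, while most papillary nuclei at E18.5 came from a cluster led by Nrxn3 and Corin. A P3 cluster led by the same 2 genes, of 365 nuclei, was left unnamed because it raised 7 of 9 endothelial markers, and its Ptch1 level was 340.2 CPM (317.8 to 363.8).

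The highest Ptch1 level of any interstitial cluster was in the smooth muscle nuclei, a cluster led by Rbm24, Myh11 and Actg2, the last 2 of them contractile genes of smooth muscle. In 16 such nuclei at E18.5, 41 UMIs gave 881 CPM (632 to 1196), and in 28 nuclei at P3, 156 UMIs gave 1230 CPM (1045 to 1439). That was 1.49 times the medullary stroma at E18.5 (1.06 to 2.03) and 4.05 times at P3 (3.40 to 4.79). Ptch1 was present in 93.8% and 92.9% of these few nuclei. Hhip in the same nuclei stood at 301 CPM (164 to 505) on 14 UMIs in 4 nuclei at E18.5 and 102 CPM (54.6 to 175) on 13 UMIs at P3, but Gli1 rested on 2 and 3 UMIs and could not be placed.

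**Figure D3:**
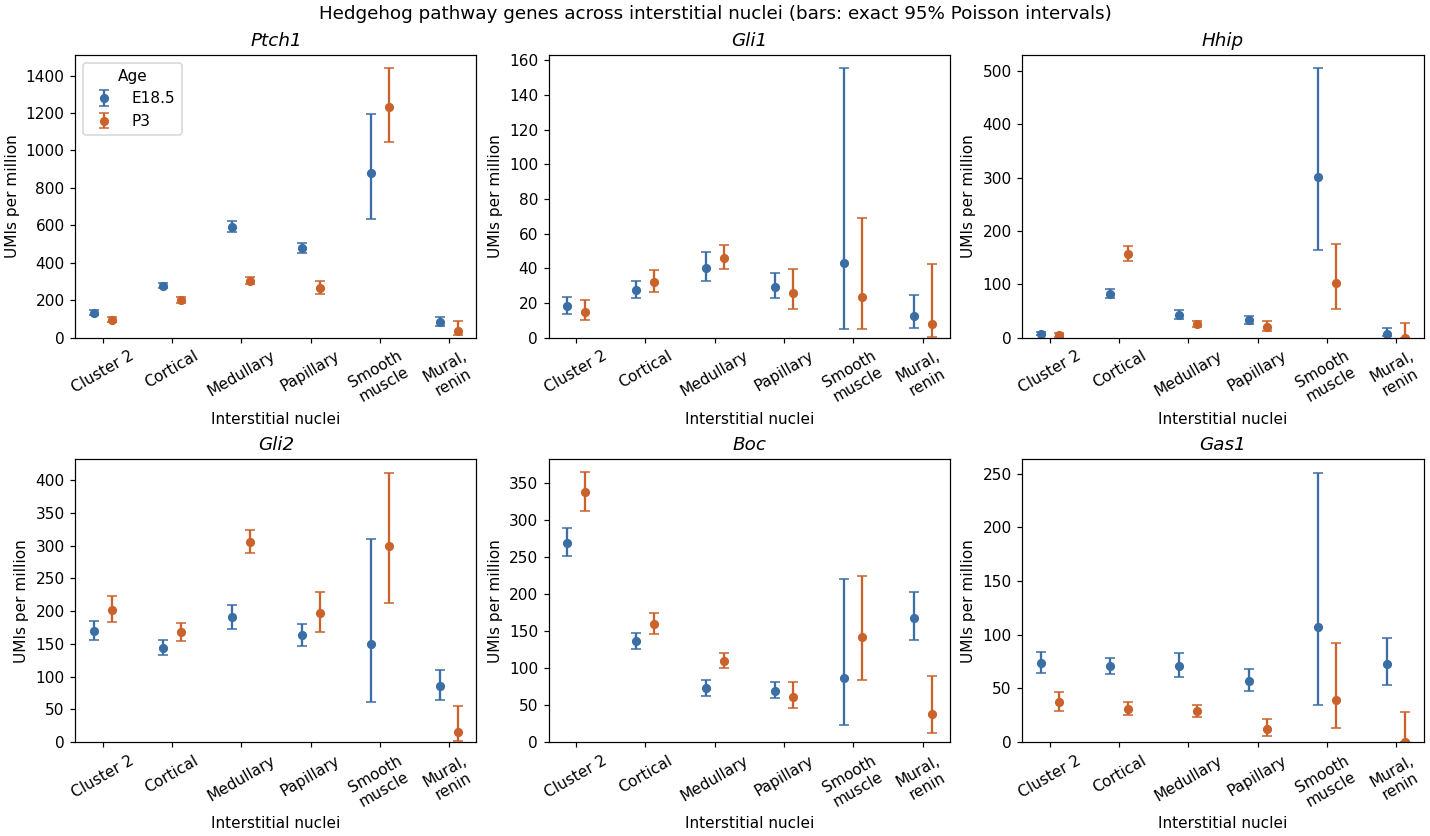
Levels of 6 genes in CPM (vertical axes) across interstitial clusters (horizontal axes) at E18.5 (blue) and P3 (orange), with exact 95% Poisson intervals as bars. Cluster 2 is the unnamed cluster led by Cadm1 and Gdnf at E18.5 and by Aox3 and Dgki at P3. Ptch1 is higher in cortical than in cluster 2 nuclei, higher again in medullary nuclei and highest in smooth muscle. Boc is lower from cluster 2 to cortical to medullary nuclei, and Hhip is higher in cortical than in medullary or papillary nuclei.

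Hhip and Boc were arranged differently from Ptch1. Hhip was 82.4 CPM (74.3 to 91.1) in cortical stroma at E18.5 against 42.8 CPM (34.8 to 52.0) in medullary and 32.3 CPM (25.4 to 40.5) in papillary stroma. At P3 the cortical level was 157 CPM (144 to 172), and medullary nuclei with 25.5 CPM (20.6 to 31.1) had only 0.162 times as much (0.129 to 0.201). Of the cortical, medullary and papillary zones, Gli1 was highest in medullary stroma, at 40.2 CPM (32.5 to 49.2) and 46.2 CPM (39.6 to 53.5), 1.47 times cortical stroma at E18.5 (1.12 to 1.94) and 1.45 times at P3 (1.13 to 1.86). Gli2 was also higher in medullary than cortical stroma, 1.32 times (1.17 to 1.496) and 1.82 times (1.65 to 2.02). Smo did not separate these zones, with medullary-to-cortical ratios of 1.10 (0.963 to 1.26) and 0.982 (0.857 to 1.13). Boc ran the other way. In an unnamed cluster led by Cadm1 and Gdnf, which raised 2 of 5 nephrogenic-zone markers, Boc reached 269 CPM (251 to 288) in 972 nuclei at E18.5, against 136 CPM in cortical, 72.3 CPM in medullary and 69.4 CPM in papillary stroma. The matching P3 values were 337 CPM (312 to 364) in a cluster led by Aox3 and Dgki, 159 CPM, 109 CPM and 61.4 CPM. These were not the highest Boc levels of the interstitium. Unnamed clusters led by Lrp1b (197 nuclei), Ebf2 (134) and Nfe2l3 (100) stood at 309, 293 and 278 CPM at E18.5, and one led by Luzp2 (52) at 557 CPM at P3. The Gdnf and Aox3 clusters had little Hhip, 7.03 CPM on 21 UMIs and 4.01 CPM on 8 UMIs, and low Ptch1, 132 and 95.3 CPM. Their Gli1 was 0.613 times (0.452 to 0.815) and 0.430 times (0.286 to 0.622) the other interstitial nuclei. The E18.5 Lrp1b cluster, which also raised 2 of 5 nephrogenic-zone markers, had more Hhip, 125 CPM on 76 UMIs, against 82.4 CPM in cortical stroma. Its Gli1 was 1.40 times (0.877 to 2.13) the other interstitial nuclei, an interval that holds 1. The P3 Luzp2 cluster, with 2 of 5 such markers, had Hhip at 31.9 CPM on 6 UMIs. Summed markers of collecting duct in the named stromal zones reached at most 129 CPM at E18.5 and 47.5 CPM at P3, against 1711 and 1040 CPM in collecting duct nuclei. Those of nephron progenitors reached 799 and 1253 CPM, against 2996 and 3016 CPM in nephron progenitor nuclei, and those of endothelium 489 and 533 CPM, against 7615 and 9136 CPM in endothelial nuclei. The part of this RNA in the zone levels was not tested.

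Transcripts of 2 members were also counted in the same interstitial nuclei after thinning to 1000 UMIs. Among nuclei with Ptch1, 5.95% also held Hhip at E18.5 (4.71 to 7.41) against 3.01% of nuclei without Ptch1 (2.49 to 3.59), and at P3 the shares were 8.12% (6.05 to 10.6) and 3.77% (3.07 to 4.58). Nuclei with both were few, 75 of 5150 at E18.5 and 48 of 3163 at P3. Gli1 was found in 3.17% of Ptch1-positive (2.28 to 4.30) and 2.57% of Ptch1-negative nuclei (2.10 to 3.12) at E18.5, intervals that overlap, and in 6.09% (4.30 to 8.33) and 2.53% (1.96 to 3.21) at P3. At 2000 UMIs the E18.5 shares for Gli1 were 7.41% (6.22 to 8.75) and 4.40% (3.68 to 5.22), intervals that do not overlap. The Gli1 and Hhip pair, with 5 and 9 nuclei positive for both, the Gli2 and Gli3 pair, and the Gas1 and Boc pair had overlapping intervals at both ages. These shares pool zones that differ in level. Within cortical stroma alone, thinned to 2000 UMIs, Hhip was in 18.2% of Ptch1-positive and 6.70% of Ptch1-negative nuclei at E18.5 and in 25.4% and 15.6% at P3. Within medullary stroma the shares were 7.86% (5.47 to 10.9) and 5.28% (2.92 to 8.71) at E18.5, intervals that overlap, and 6.52% (3.91 to 10.1) and 2.16% (1.08 to 3.83) at P3. For Ptch1 and Gli1 the intervals overlapped within cortical and within medullary stroma at both ages.

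Between the ages, Ptch1 was lower and Gli2 higher in the P3 interstitium, and Gas1 was lower in nearly every type. Interstitial Ptch1 at P3 was 0.761 times the E18.5 level (0.729 to 0.794), with 0.513 in medullary (0.474 to 0.555) and 0.720 in cortical stroma (0.654 to 0.792). Ptch1 was also lower outside the interstitium, in collecting duct at 0.680 (0.546 to 0.845), endothelium at 0.675 (0.565 to 0.804) and distal tubule at 0.509 (0.303 to 0.850). Nephron progenitors showed 1.04 (0.926 to 1.16). Across 12 types named at both ages, the Ptch1 interval lay below 1 in 4 and above 1 in 0. In smooth muscle the Ptch1 ratio was 1.40 (0.984 to 2.02), an interval that holds 1, and without called doublets 1.49 (1.05 to 2.17). Of the 156 smooth muscle Ptch1 UMIs at P3, 25 lay in 1 of 28 nuclei, so this ratio rests on few nuclei. Gli2 was 1.49 times (1.41 to 1.56), Gli3 1.30 times (1.25 to 1.36), Gli1 1.18 times (1.03 to 1.34), Hhip 1.21 times (1.09 to 1.33), Smo 0.862 times (0.810 to 0.918) and Boc 1.05 times (0.995 to 1.11) the E18.5 level. Of the 12 types named at both ages, Gli2 was higher beyond counting error in 5 and Gli3 in 6, and both were lower in 0. Interstitial Gas1 was 0.395 times the E18.5 level (0.353 to 0.442), and in 11 of these 12 types its interval lay below 1. By the same rule of 2-fold and an interval that excludes 1, 0 of the 8 tested members were higher and 1, Gas1, was lower at P3, against 2.24% higher and 12.5% lower among all genes tested. Gas1 has a single exon, and 205 tested protein-coding genes with 1 exon had a median P3-to-E18.5 ratio of 0.6005 in interstitial nuclei, against 0.891 over all 13631 genes tested. The part of gene structure in the Gas1 ratio was not tested, and the change of software release cannot be told apart from age.

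**Figure D4:**
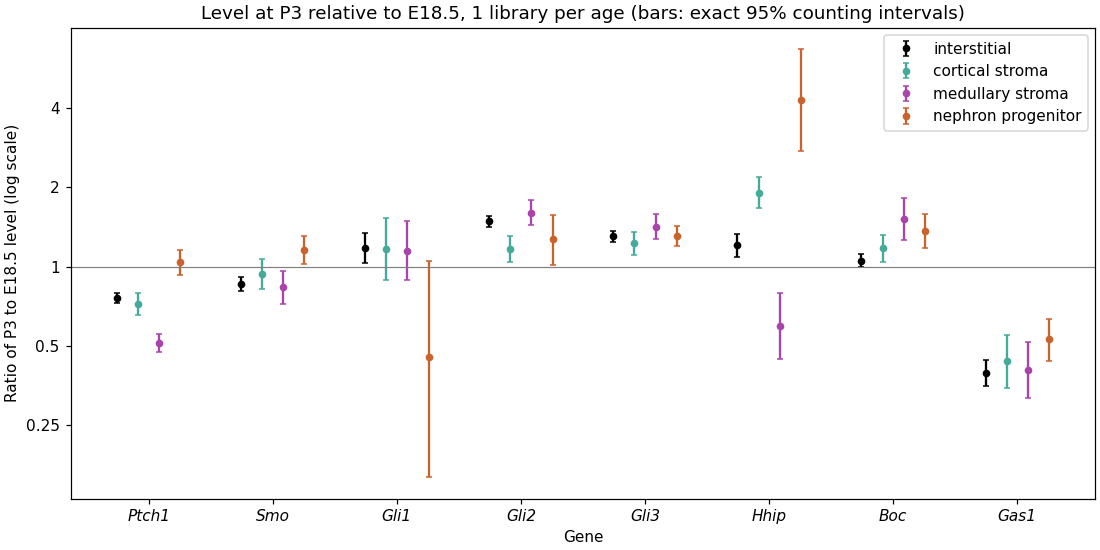
Ratio of the P3 to the E18.5 level (vertical axis, log scale) for 8 genes (horizontal axis) in interstitial, cortical stromal, medullary stromal and nephron progenitor nuclei, with exact 95% counting intervals as bars. Gas1 lies below 1 in all 4 groups, Ptch1 lies lowest in medullary stroma at 0.513, and Hhip lies above 1 in cortical stroma and below 1 in medullary stroma.

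Of 30 other genes of the pathway, listed by role, 27 had enough UMIs at each age, and 5 were at least 2-fold higher and 3 at least 2-fold lower in interstitial nuclei at each age. Over all tested genes 5.6% and 7.7% were higher and 13.3% and 18.8% lower. With 27 genes, the counts of the list describe it and were not tested. The list's median ratio was 1.03 at E18.5 and 1.15 at P3, against 0.926 and 0.880 over all genes. Among the genes of ligand handling, Hhat, the acyltransferase that palmitoylates the ligand, was 2.04 times (1.91 to 2.18) and 2.23 times (2.10 to 2.37), and Scube1, of a family of secreted proteins, was 3.06 times (2.70 to 3.46) and 3.71 times (3.33 to 4.13). Scube2, which promotes release of the lipid-bearing ligand, passed at E18.5 with 2.17 times (1.79 to 2.62) and stood at 1.92 times (1.64 to 2.26) at P3. Gpc3, a glypican that competes with Ptch1 for ligand, was 2.67 times (2.64 to 2.71) and 2.77 times (2.73 to 2.81). Cdon, a co-receptor, was 1.02 times (0.953 to 1.09) and 0.727 times (0.669 to 0.790). Ihh, another ligand, was lower at 0.408 times (0.256 to 0.623) and 0.243 times (0.123 to 0.435), as were Scube3 at 0.429 and 0.249 times and Lrp2, the endocytic receptor of proximal tubule, at 0.243 and 0.120 times. None of the 8 transduction genes or 5 cilium genes passed 2-fold in either direction. The highest transduction gene was Kif7, a ciliary kinesin that regulates Gli proteins, at 1.49 times (1.27 to 1.75) at E18.5, and Gpr161, a ciliary receptor that restrains the pathway, at 1.77 times (1.45 to 2.16) at P3. Kif3a, a motor subunit of ciliary transport, was the highest cilium gene at 1.28 times (1.20 to 1.36) and 1.51 times (1.40 to 1.63). Among mesenchymal genes often placed downstream, Tshz3, a ureteric smooth muscle regulator, was 3.95 times (3.80 to 4.10) and 3.85 times (3.68 to 4.03), and Foxl1 was 1.66 times (1.33 to 2.06) and 3.46 times (2.71 to 4.42). The other 3 with enough UMIs stayed within 2-fold, Bmp4 at 1.20 and 1.16 times, Ccnd1, a cyclin, at 0.704 times (0.654 to 0.757) and 0.626 times (0.579 to 0.675), and Bcl2, an inhibitor of apoptosis, at 0.602 times (0.580 to 0.625) and 0.863 times (0.832 to 0.895). Foxf1, with 13 and 17 UMIs in all, Foxf2 with none, and Dhh, with 37 and 32, were too rare to compare.

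**Figure D5:**
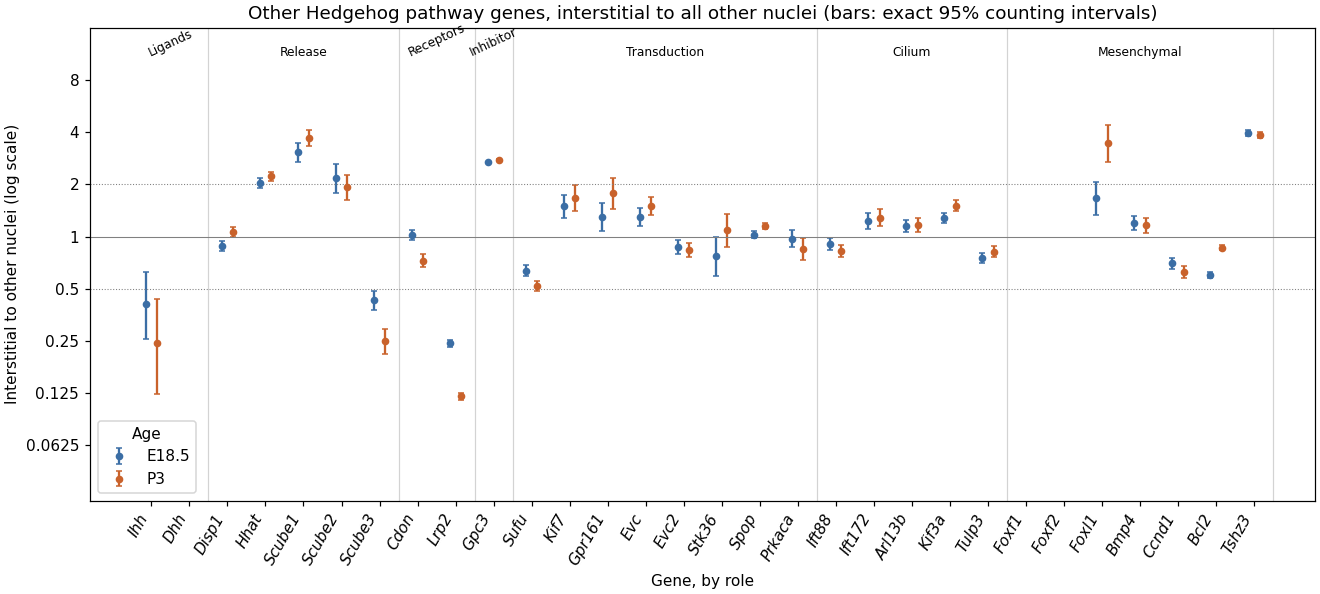
Ratio of the level in interstitial nuclei to that in all other nuclei (vertical axis, log scale) for the other pathway genes with at least 100 UMIs, grouped by role (horizontal axis), at E18.5 (blue) and P3 (orange), with exact 95% counting intervals as bars. Tshz3, Scube1, Hhat and Gpc3 lie above the dotted line at 2 and Lrp2 and Scube3 below that at 0.5 at both ages, while transduction and cilium genes lie between the lines.

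As a description of shape, each of 5 members was compared with all other genes over 28 clusters at E18.5, using Pearson's r of log2(CPM + 10). Clusters share a library and differ in depth, so these values carry no p. Shh was most like Mir205hg (r = 0.86), Krt18, Aqp3, Capn5 and Atp10b, and over 34 clusters at P3 the r of these genes was 0.90, 0.79, 0.64, 0.70 and 0.83. With 107 UMIs at E18.5, Shh itself lay under the 500 UMIs asked of the compared genes, so its r rests on few UMIs. Gli1 was most like Lama2 (r = 0.91), a basement membrane laminin chain, then Sec24d, Mill2, Col16a1 and Tmem45a, with 0.92, 0.78, 0.86, 0.91 and 0.84 at P3. Hhip was most like Pdgfra (r = 0.91), a receptor of mesenchymal cells, then Ddr2, Gm16150, Tmem45a and Rhbdl3, with 0.76, 0.68, 0.84, 0.71 and 0.59 at P3. For Ptch1 the likest gene was Negr1 (r = 0.81 and 0.75), followed by Fat3, Kcnb2, Bean1 and Gm11149, with 0.67, 0.69, 0.65 and 0.55 at P3. Gas1 had the weakest likeness, with Fzd2 (r = 0.75 and 0.64), Spock2, Igsf10, Meox2 and Osr1, and at P3 the last 4 had r of 0.57, 0.29, 0.40 and 0.33.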

How the data were processed

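Nuclei of mouse kidneys were profiled in 2 libraries, 1 per age. The deposited values are raw UMI counts per gene and barcode, made by the authors with Cell Ranger on the mm10 build. Per the file headers release 7.0.0 was used at E18.5 and 5.0.1 at P3, while the submitters' processing notes list 5.0.1 for both, and the annotation release and the counting of intronic reads are not given in the sources used here. Barcodes with few UMIs or genes (log values under the median by over 3 scaled absolute deviations) or a high mitochondrial share (over the median by 3 such deviations and by at least 0.5 percentage points) were removed, which left 21270 of 21600 and 11765 of 12216. These held 77321253 and 70055219 UMIs.

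Nuclei were clustered per library in R 4.3.3 with scran 1.30.0 and bluster 1.12.0 (2000 variable genes, 50 principal components, Walktrap on 10 neighbours), leaving out the 40 Hedgehog genes. A cluster was named where at least 3 markers of a list were raised 2-fold with at least 10 UMIs. Further naming limits were set after the clusters were seen, and they left unnamed clusters with over 50% called doublets (3.38% and 8.35% of nuclei) and clusters with hemoglobin but no Alas2 (12.8% and 13.4%). The doublet shares count only clusters unnamed for that reason. Other clusters over 50% called doublets were unnamed on other grounds. The largest of these, 2695 nuclei at E18.5 (81.0% called doublets) and 775 at P3 (84.5%), raised fewer than 3 markers. Doublets called by scrublet in scanpy 1.11.5 were kept. The members and lists were chosen with earlier results of these data known.

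UMIs were summed per type and scaled to CPM, with exact Poisson intervals for levels, exact conditional binomial intervals for ratios and exact binomial intervals for shares (scipy 1.17.1). They cover counting error only and treat UMIs as independent. Genes with at least 100 UMIs in a library were compared, and one was called where it differed 2-fold with an interval that excludes 1. Between the ages, this UMI limit applied to the interstitial nuclei of both libraries together. The interval functions were tested on simulated data. Genes named are the 9 members, pathway genes past 2-fold or highest of their role, and for 5 members the 5 genes most like them among those with at least 500 UMIs. In the pathway list, 1 gene is not reported here. Alternatives were other clusterings, doublets removed, deeper nuclei, equal weights, unnamed clusters left out and other UMI limits.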

Additional observations from a re-analysis of the deposited data

Results flagged for a closer look

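Ratios of the P3 to the E18.5 level were picked out where the same gene moved up in 1 type or zone and down in another with both counting intervals on their own side of 1. With 1 library per age the differences between types were not tested. Hhip, the decoy receptor, was higher at P3 in cortical stroma at 1.91 (1.67 to 2.19) and in nephron progenitors at 4.29 (2.75 to 6.69, from 42 and 45 UMIs), and lower in medullary stroma at 0.595 (0.445 to 0.795) and in smooth muscle at 0.341 (0.147 to 0.781, from 14 and 13 UMIs). Without called doublets these 4 ratios were 1.90, 4.31, 0.596 and 0.394. In smooth muscle the 14 E18.5 UMIs lay in 4 nuclei, 6 of them in 1 nucleus. The share of smooth muscle nuclei with Hhip was 25% at E18.5 and 28.6% at P3, so this ratio rests on few nuclei. In podocytes the Hhip ratio was 3.03 (1.18 to 8.72), but 9 of the 16 P3 UMIs lay in 1 nucleus, and without called doublets the ratio was 0.228 (0.00506 to 1.77), so its direction rests on called doublets.

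Boc, a co-receptor, was higher at P3 in endothelium at 1.18 (1.002 to 1.39), nephron progenitors at 1.37 (1.17 to 1.58), podocytes at 2.04 (1.26 to 3.34), cortical stroma at 1.17 (1.04 to 1.32) and medullary stroma at 1.51 (1.26 to 1.82), and lower in the ureteric tip at 0.566 (0.394 to 0.803). Without called doublets the endothelial ratio was 1.13 with an interval that holds 1 (0.958 to 1.33), and the other 5 kept intervals that exclude 1. Smo, the signal transducer, stood at 1.16 (1.02 to 1.30) in nephron progenitors and 0.835 (0.723 to 0.964) in medullary stroma, and at 1.16 and 0.847 without called doublets. The median ratio over all genes tested in interstitial nuclei, 0.891, lies within the medullary interval of Smo. Gli1 met the same rule only with interstitial nuclei taken as a whole, at 1.18 (1.035 to 1.34). In the ureteric tip its ratio was 0.254 (0.0477 to 0.879), from 17 and 3 UMIs.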

How the results depend on the processing

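Among 258 recomputed ratios of interstitial nuclei, the ureteric lineage, stromal zones and pairs of genes in the same nuclei, none with a counting interval that excludes 1 changed direction. Outside that set, the Hhip ratio of P3 to E18.5 in podocytes went from 3.03 to 0.228 without called doublets. The interstitial ratio of Gas1, whose interval holds 1, went from 1.003 to between 0.848 and 1.08 at E18.5 and from 1.09 to as low as 0.890 at P3. The 18 ratios recomputed under Leiden clusters and the 18 under 20 nearest neighbours all moved by less than their counting interval. The stromal zones were named from Walktrap clusters only, so neither alternative covers them. Without called doublets, the interstitial ratio of Ptch1 was 2.30 at E18.5 and 2.58 at P3 (2.02 and 2.12 with them), and that of Gli1 5.02 and 11.5 (4.12 and 5.71). With unnamed clusters left out, Ptch1 gave 2.29 and 2.58 and Gli1 5.87 and 16.1. With each nucleus weighted equally, Ptch1 gave 2.17 at E18.5, and Shh in the ureteric lineage gave 4.47 at P3 against 11.3 from summed UMIs. Counting zone-named clusters as not interstitial, an alternative chosen after seeing the data, gave 1.85 for Ptch1 at E18.5, below 2-fold. With a limit of 30 UMIs, 530 of 16479 genes tested (3.22%) were higher at P3 in place of 306 of 13631 (2.24%). The cause of these shifts was not tested. No paired analysis was possible because each age has 1 library, and no library could be left out. Depth limits Shh most, with 107 and 89 UMIs in all.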
